A study of Mus musculus with 3 samples.

Results

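The genes described here carry the amino acid response that the transcription factor ATF4 drives, together with the enzymes that load amino acids onto tRNA. They were chosen by name, 19 of them genes of cytosolic aminoacyl-tRNA synthetases. The others were 6 ATF4 regulators and stress effectors, 6 genes of the asparagine and serine pathway, and 3 amino acid transporters. All 34 were found among the 27998 genes of the count matrices. Their RNA was counted in droplet-based single-cell libraries (10x Genomics) of mouse bone marrow cells from a DAPI-, Lin-, c-kit+ gate, which collects living stem and progenitor cells. The mCherry library held the reporter-positive cells of an AML1/ETO mouse. This C57BL/6 mouse carried Mx1-Cre, a recombinase that interferon switches on in blood and other tissues, and a heterozygous conditional knock-in of Runx1-Runx1t1, the fusion called AML1-ETO, with mCherry downstream and induced by poly(I:C). The non_mCherry library held the reporter-negative cells of that same mouse. For control, cells came from a Wild-Type C57BL/6 mouse, and the labels give neither the ages nor whether this mouse also received poly(I:C). With 3 libraries from 2 mice and 1 library per group, none of the differences below was checked in a second library. Mouse, sort fraction and library cannot be told apart from group, and all intervals cover counting error only.

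When amino acids, heme or protein folding fail, kinases such as GCN2, HRI and PERK phosphorylate the translation factor eIF2alpha. General translation then drops, while Atf4 mRNA is translated more, so the amount of ATF4 protein cannot be read from its mRNA. ATF4 binds DNA together with C/EBP factors and activates genes for tRNA loading, asparagine and serine synthesis and amino acid import. Mice without Atf4 are anaemic in fetal life.

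After filters, 9858 mCherry, 7827 non_mCherry and 8771 control cells remained, with 86925887, 86007332 and 140228075 unique molecular identifiers (UMIs, 1 per counted RNA molecule). The median UMIs per cell were 8083.5 in mCherry, 9174 in non_mCherry and 15281 in control. Between 24 and 42 cell barcodes were shared by each pair of libraries. Levels are a gene's UMIs, summed over cells, per 1000000 UMIs of all genes (CPM), where fewer cells of a type and less RNA per cell cannot be told apart. Runx1t1, which supplies the ETO portion, had 8.38 CPM in mCherry, 0.337 CPM in non_mCherry and 0.214 CPM in control. Kit, the gene of the sorted receptor, had 268, 56.6 and 67.1 CPM in the same order. The mCherry library stood apart in other ways too. Its 20 S phase genes summed to 999 CPM, against 2527 CPM in non_mCherry and 2603 CPM in control. Its 16 immediate early genes, which respond fast to stimulation and to cell handling, summed to 19944 CPM, against 3244 CPM in non_mCherry and 2997 CPM in control. The part of cycling or of handling in the differences that follow was not tested, and the values are given beside them.

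The known binding site of ATF4 with C/EBP factors was searched as TGATGNAAN on both strands, where N is any base. It is shown for 5 of the members that carry it upstream of their RefSeq start. The Asns window lies inside the gene span given below, which comes from another annotation. RefSeq promoters (GRCm38.p6), 250 bases before to 50 bases after the start, were matched by symbol for 26 of the 34 members. The letters occurred in 9 of these 26 promoters (34.6%), against 132 of the 5178 promoters of genes with at least 20 CPM in 1 library (2.55%) and 1215 of all 27025 (4.5%). The carriers were Aars, Gars, Iars, Tars, Yars, Trib3, Chac1, Asns and Slc7a11. A match is a description of letters and not a site shown to be bound. Each line gives up to 10 bases on either side, 5′ to 3′ on the strand of the gene, with the 9 letters of the match in capitals. A match on the opposite strand stands as its reverse complement.
Asns, chr6:7693214-7693242, minus strand: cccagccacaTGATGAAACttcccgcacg
Gars, chr6:55037960-55037988, plus strand: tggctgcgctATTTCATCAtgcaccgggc
Tars, chr15:11399659-11399684, minus strand: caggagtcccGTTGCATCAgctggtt
Chac1, chr2:119351038-119351066, plus strand: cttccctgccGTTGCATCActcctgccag
Slc7a11, first match, chr3:50443661-50443689, minus strand: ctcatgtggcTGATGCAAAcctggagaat
Slc7a11, second match, chr3:50443643-50443671, minus strand: acctggagaaTTTGCATCAtcatgcagcc

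The 6 members with a match that were at 20 CPM or more in mCherry or control had a median log2 ratio of -0.80 between mCherry and control, and the 15 without a match one of -0.50. The carriers include Asns and Aars, whose ratios are far below 0, but also Chac1 and Slc7a11, which had few UMIs. Phgdh, Mthfd2, Ddit3 and Slc3a2, which also had ratios far from 0, had no such letters in this window.

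In the mCherry cells the groups of this response did not move as 1 block. Asparagine, serine and tRNA synthetase genes were lower than in control, Atf4 mRNA was near the control level, and Ddit3 and Slc3a2 were higher. Of the 27 members that reached 20 CPM in mCherry or control, 19 had a log2 ratio of mCherry over control of -0.32 or less (a fold of 1.25), while 32.1% of all 6573 such genes were that much lower. Another 2 members were that much higher, against 38.6% of all genes. At a log2 ratio of 1 or more in size, 5 members were lower (background 9.86%) and 1 was higher (background 14.9%). The median ratio of the members was -0.64 on the log2 scale, against 0.08 for all genes. Ratios are log2 of (CPM + 5) over (CPM + 5), which understates differences of low genes, while folds are plain quotients of CPM. By plain quotient Gars, Hars and Slc3a2 also differed by 2-fold or slightly more, and with a pseudocount of 1 CPM 7 members were lower at that size.

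**Figure D1:**
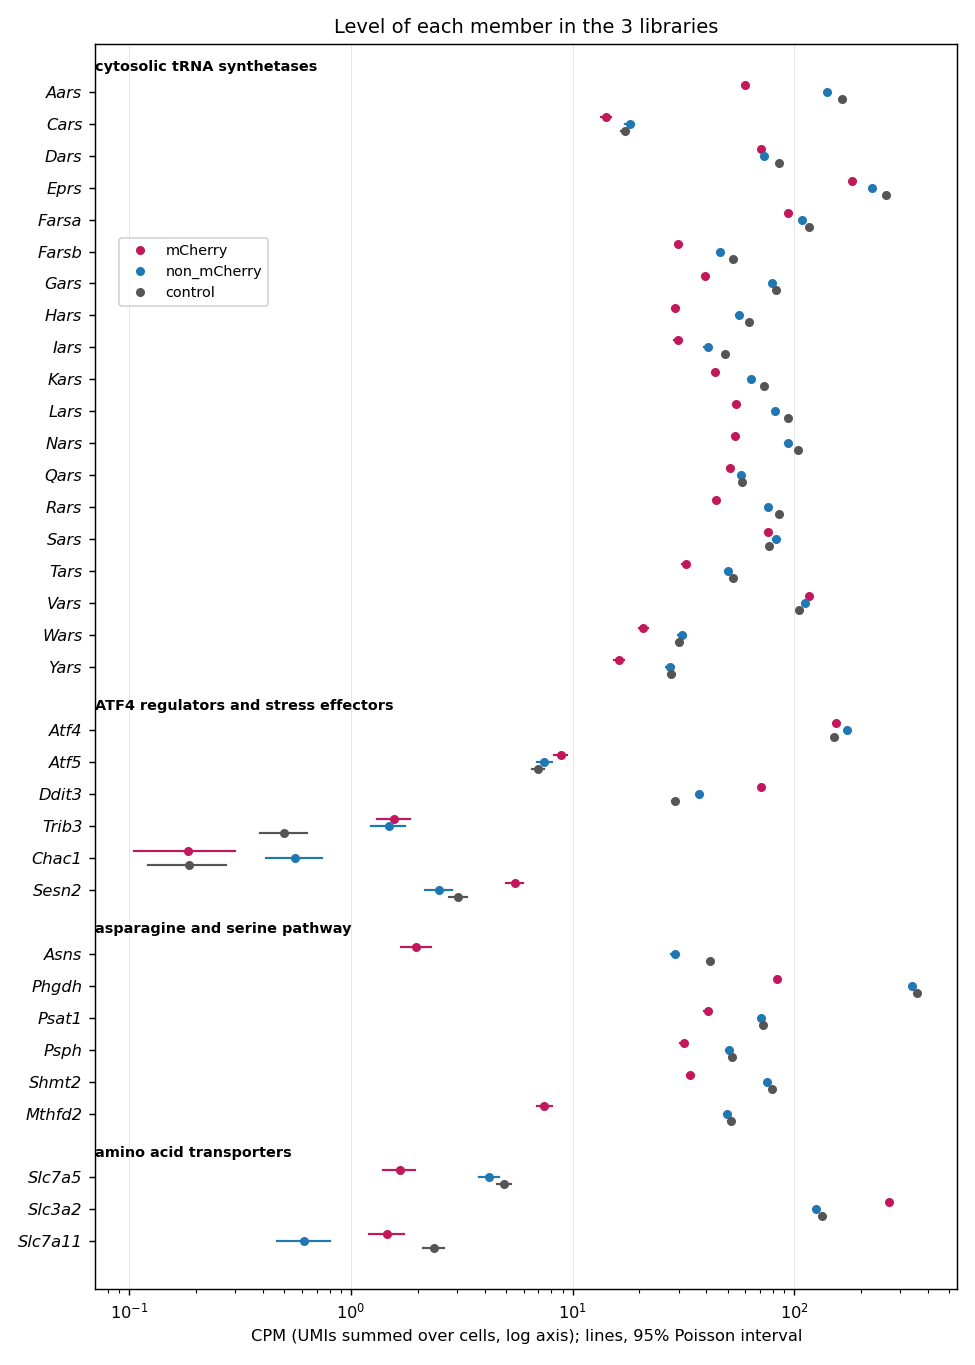
CPM of each of the 34 genes in the mCherry, non_mCherry and control libraries (log axis, 1 point per library, lines for the 95% Poisson interval), by group. The non_mCherry and control points lie close together for most genes, the mCherry points of all synthetases but Vars and of the asparagine and serine pathway lie to their left, and those of Ddit3 and Slc3a2 to their right.

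The asparagine and serine pathway held the lowest ratios. All 6 of its genes were lower in mCherry than in control by at least 0.32 on the log2 scale (background 32.1%). By a log2 ratio of at least 1, 4 of them were lower (background 9.86%), and the median was -1.57. Asns and Mthfd2 entered only through their control level. With 20 CPM required in both libraries, 4 genes remained, all 4 lower by at least 0.32, with a median of -0.93. Their summed level was 199 CPM in mCherry, 615 CPM in non_mCherry and 655 CPM in control. Asns, the enzyme that makes asparagine from aspartate (chr6:7675169-7693254, minus strand, mm10), had 171 UMIs or 1.97 CPM in mCherry. It had 29.0 CPM in non_mCherry and 41.4 CPM in control. The mCherry library was thus lowest, and both others were above 20 CPM. The mCherry level was 21.0-fold lower than control (95% counting interval 18.1 to 24.7) and 14.8-fold lower than non_mCherry (12.6 to 17.3). These folds include differences in cell makeup. Asns was highest in control in erythroid progenitor-like cells (182 CPM), which had under 50 mCherry cells. Within basophil and mast cell-like cells Asns had 2.04 CPM in mCherry and 8.56 CPM in control.

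Phgdh, the enzyme of the first step from glycolysis to serine (chr3:98313170-98339990, minus strand), stood at 83.5 CPM in mCherry, 339 CPM in non_mCherry and 359 CPM in control. Here too the reporter-negative cells of the same mouse lay beside the control and not beside mCherry. The mCherry level was 4.30-fold lower than control (4.19 to 4.40). Mthfd2, which moves serine-derived carbon through the folate cycle of mitochondria, had 7.46 CPM in mCherry, 49.8 CPM in non_mCherry and 51.6 CPM in control, 6.92-fold lower in mCherry than in control (6.38 to 7.51). Shmt2, the mitochondrial enzyme that passes carbon from serine to folate, had 33.9 CPM in mCherry, 75.5 CPM in non_mCherry and 78.8 CPM in control. The 2 remaining enzymes, which complete serine synthesis after Phgdh, differed least. Psat1 had 40.6 CPM in mCherry, 70.8 CPM in non_mCherry and 72.0 CPM in control, and Psph had 31.7, 50.8 and 52.0 CPM. The enzymes of 1 linear route thus differed by unequal factors, 4.30-fold for Phgdh against 1.77-fold for Psat1 and 1.64-fold for Psph.

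The synthetases, which join amino acids to their tRNAs, were lower as a group with smaller factors. Their 19 genes summed to 1057 CPM in mCherry, 1460 CPM in non_mCherry and 1593 CPM in control. Of the 18 that entered, 13 were lower in mCherry than in control by at least 0.32 (background 32.1%) and 0 were higher (background 38.6%). The median of the 18 was -0.63, against 0.08 for all genes. The 5 that were not lower by that size, Dars, Farsa, Qars, Sars and Vars, had ratios between -0.30 and 0.14. Vars, for valine, had 116 CPM in mCherry, 112 CPM in non_mCherry and 105 CPM in control, the single synthetase with its highest level in mCherry. Its ratio turns from 0.14 to -0.05 under median-of-ratios scaling. Sars, for serine, had 75.7, 82.3 and 76.7 CPM in mCherry, non_mCherry and control. Cars, for cysteine, stayed under 20 CPM in all 3 libraries.

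Aars, for alanine, was the single synthetase with a log2 ratio below -1.0. It had 59.7 CPM in mCherry, 140 CPM in non_mCherry and 164 CPM in control, 2.74-fold lower in mCherry than in control (2.66 to 2.82). Gars, for glycine, had 39.4 CPM in mCherry, 79.6 CPM in non_mCherry and 82.2 CPM in control. Hars, for histidine, had 29.1, 56.2 and 62.3 CPM in the same order. These were followed by Nars (-0.89), Rars (-0.88), Farsb and Lars (-0.73 each) and Kars (-0.68) on the log2 scale of mCherry over control. Eprs, for glutamate and proline, had 182 CPM in mCherry, 224 CPM in non_mCherry and 258 CPM in control. Aars overlaps Exosc6 on its own strand in the annotation, and Hars overlaps Hars2 on the opposite strand. Whether counting used the strand is not given in the sources used here, so reads of such pairs may not be told apart.

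Among the regulators, Atf4 mRNA itself hardly differed. It stood at 154 CPM in mCherry, 173 CPM in non_mCherry and 151 CPM in control, a quotient of 1.02 for mCherry over control (0.999 to 1.04). The ratio of 0.03 becomes -0.16 under median-of-ratios scaling. Ddit3, which encodes the stress factor CHOP (chr10:127290774-127296288, plus strand), had 70.7 CPM in mCherry, 37.1 CPM in non_mCherry and 29.1 CPM in control. It was highest in mCherry and 2.43-fold above control (2.34 to 2.53). The locus overlaps Mars, the methionine synthetase, on the opposite strand, and Mars went the other way with 18.2 CPM in mCherry, 43.1 CPM in non_mCherry and 45.7 CPM in control. It also overlaps another protein-coding entry named Ddit3 on its own strand, whose reads may not be told apart from it.

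The other 4 regulators were under 20 CPM in every library and entered no count. Atf5, a factor related to ATF4, had 8.81, 7.45 and 6.95 CPM in mCherry, non_mCherry and control. Sesn2, an inhibitor of mTORC1 that senses leucine, had 5.48 CPM in mCherry, 2.49 CPM in non_mCherry and 3.04 CPM in control. Trib3, a pseudokinase induced by ATF4 and CHOP, had 1.56 CPM in mCherry, 1.48 CPM in non_mCherry and 0.499 CPM in control. Without B cell progenitor-like cells, Trib3 stood at 0.581 CPM in non_mCherry, so most of its level there came from that lineage. Chac1, which degrades glutathione, had 16 UMIs in mCherry, 48 in non_mCherry and 26 in control, or 0.184, 0.558 and 0.185 CPM. The mCherry and control intervals of Chac1 overlap.

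The transporters split. Slc3a2, the heavy chain that brings several amino acid exchangers to the cell surface (chr19:8706882-8723369, minus strand), had 266 CPM in mCherry, 125 CPM in non_mCherry and 133 CPM in control. It was 2.00-fold higher in mCherry than in control (1.96 to 2.04) and 2.14-fold higher than in non_mCherry (2.09 to 2.19). Its partner Slc7a5, the light chain for large neutral amino acids such as leucine, had 1.66 CPM in mCherry, 4.19 CPM in non_mCherry and 4.91 CPM in control. Slc7a11, the cystine partner, had 1.45 CPM in mCherry, 0.616 CPM in non_mCherry and 2.36 CPM in control. Over whole libraries the heavy chain was thus highest in mCherry, while Slc7a5 was lowest there. In basophil and mast cell-like cells, where Slc3a2 was highest, Slc7a5 had 4.84 CPM in mCherry and 3.98 CPM in control. Slc7a8, another light chain of Slc3a2 and not a member, had 178.5 CPM in mCherry, 7.12 CPM in non_mCherry and 5.53 CPM in control.

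**Figure D2:**
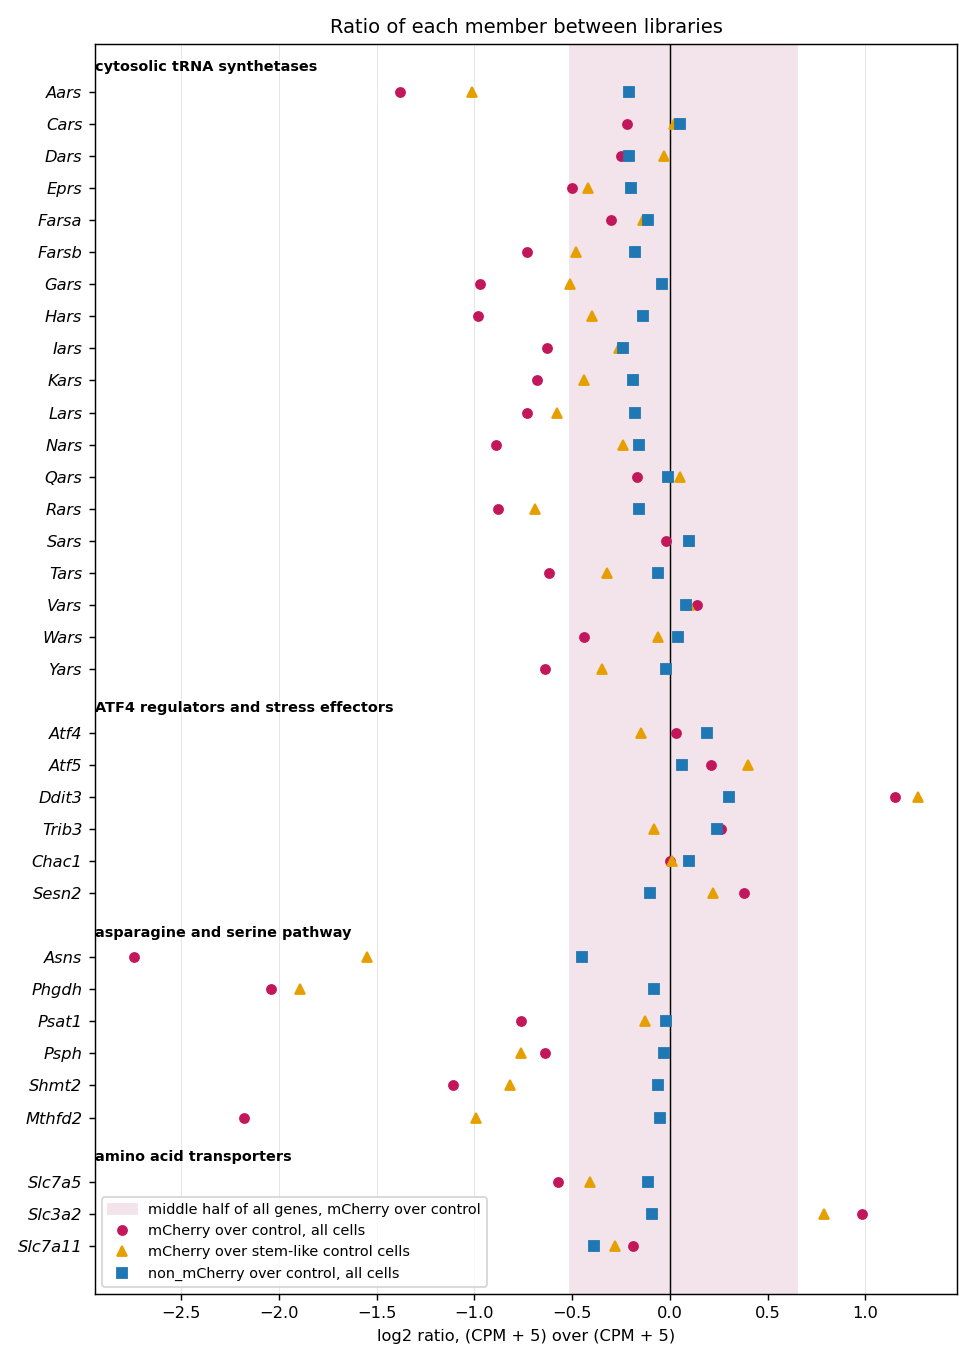
Log2 ratio of each of the 34 genes for mCherry over control, mCherry over stem-like control cells and non_mCherry over control. The band spans the first to the third quartile of all genes for mCherry over control, -0.51 to 0.65. All 6 asparagine and serine genes lie left of the band for mCherry over all control cells, Ddit3 and Slc3a2 lie right of it, and the non_mCherry ratios lie between -0.45 and 0.30.

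Against the non_mCherry cells of the same mouse the picture was close to that against control. Both comparisons share the mCherry library, so they are no independent evidence of each other. Of 27 members, 18 were lower in mCherry than in non_mCherry by at least 0.32 (background 30.8%) and 2 were higher (background 39%). At a log2 ratio of 1 or more in size, 5 were lower (background 8.96%) and 1 was higher (background 14%). The median was -0.56, against 0.10 for all genes. The lowest ratios were those of Asns (-2.29), Mthfd2 (-2.14), Phgdh (-1.96), Aars (-1.17) and Shmt2 (-1.05), and the highest were those of Slc3a2 (1.06) and Ddit3 (0.85).

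The non_mCherry cells lay near the control cells. Of 27 members, 0 were higher by at least 0.32 (background 5.22%) and 1, Asns, was lower (background 3.71%). At a log2 ratio of 1 or more in size there were 0 higher and 0 lower members (backgrounds 1.14% and 0.178%). With thinned cells the counts at 0.32 were 2 higher and 4 lower, against 10.1% and 9.58% of all genes. The median ratio of non_mCherry over control was -0.08, against -0.03 for all genes. Asns was 1.43-fold lower in non_mCherry than in control (1.36 to 1.5). Without B cell progenitor-like cells, which made up 2020 non_mCherry cells and under 50 control cells, no member was lower by 0.32, and the Asns ratio was -0.30. Ddit3 had the highest ratio, 0.30, and Atf4 came next with 0.19.

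The cell types of the marrow differed in these genes, and the libraries differed in their cell types. Clusters were made without the member genes and named from marker genes, and 13 named lineages or numbered clusters had at least 50 cells in control, 10 in non_mCherry and 5 in mCherry. Within control, the synthetases summed to 2367 CPM in erythroid progenitor-like cells, the highest, and to 1010 CPM in dendritic cell-like cells, the lowest. The asparagine and serine genes had the same extremes, 784 CPM in erythroid progenitor-like and 258 CPM in dendritic cell-like cells. Asns was spread most unevenly, with 182 CPM in erythroid progenitor-like cells, 37.7 CPM in neutrophil-like cells and 8.56 CPM in basophil and mast cell-like cells. Phgdh was highest in monocyte and macrophage progenitor-like cells with 437 CPM.

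Across the 13 control lineages the asparagine and serine sum went with the S phase sum (Pearson r = 0.90, Spearman rho = 0.91), and so did the synthetase sum (r = 0.82, rho = 0.80). The transporter sum did not (r = -0.11, rho = 0.08). Across the 10 non_mCherry lineages the values were r = 0.86 and rho = 0.92 for asparagine and serine, r = 0.63 and rho = 0.65 for the synthetases, and r = -0.72 and rho = -0.48 for the transporters. Across the 5 mCherry clusters they were r = 0.95 and rho = 0.30 for asparagine and serine, and r = 0.94 and rho = 0.30 for the synthetases. For the transporters they were r = -0.24 and rho = 0.30. Among these clusters, cluster 14 had an S phase sum of 2402 CPM, against 727 to 837 CPM in the others. The r values of mCherry thus rest largely on cluster 14. Lineages and clusters of 1 library share that library and its depth, and all these values are descriptions without a test.

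**Figure D3:**
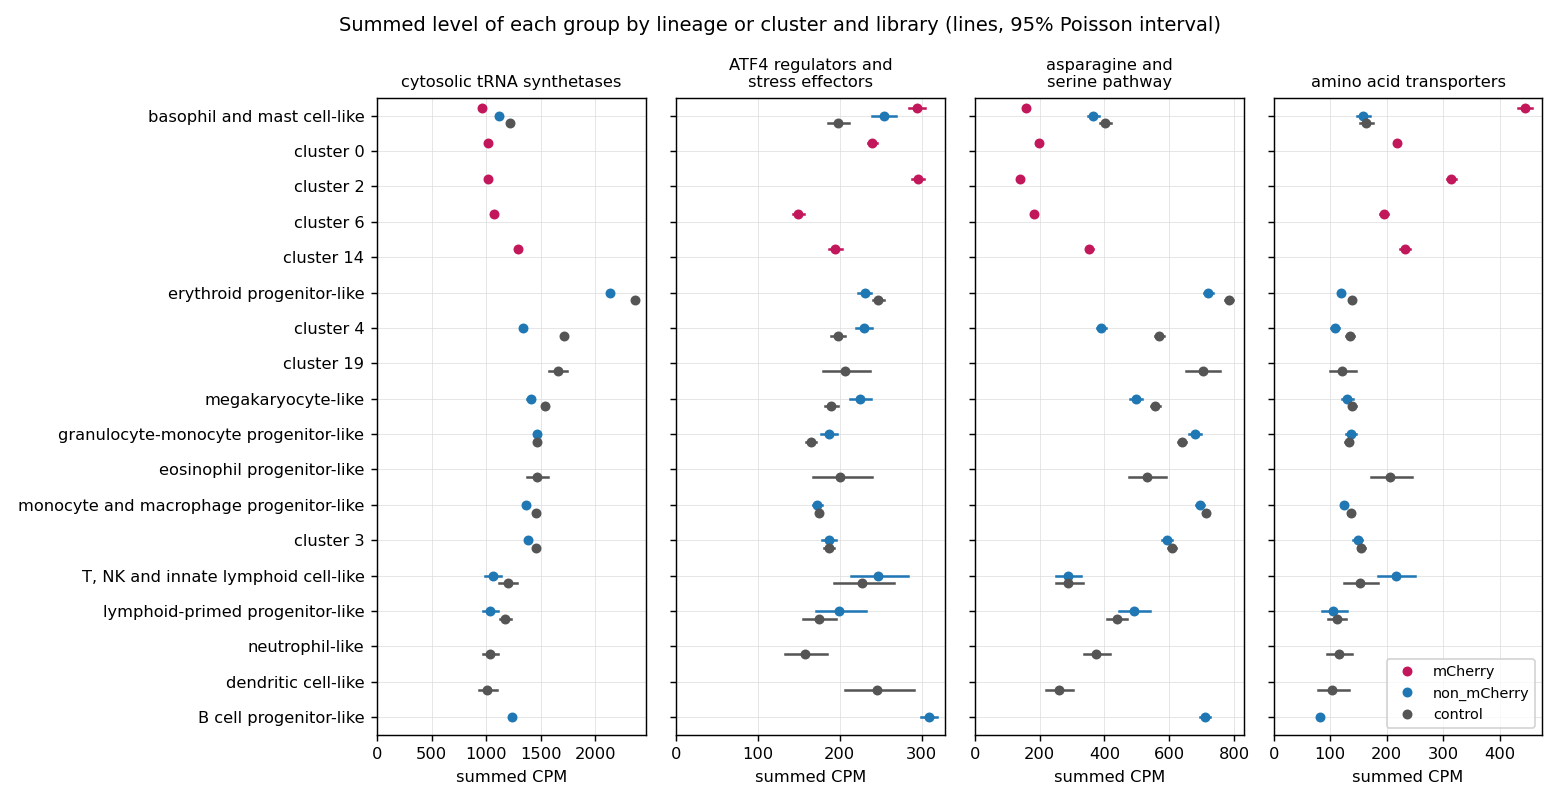
Summed CPM of the 4 gene groups in each lineage or numbered cluster of at least 50 cells, with 95% Poisson intervals; mCherry above non_mCherry above control in each row. The mCherry clusters lie at the low end of the asparagine and serine panel and at the high end of the transporter panel.

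The mCherry cells fell into clusters 0, 2, 6 and 14, which the markers did not name, and basophil and mast cell-like cluster 5. The mCherry library lay below the range of all 13 control lineages for 4 of 27 members, Aars, Gars, Hars and Mthfd2 (background 11.4% of genes). It lay above that range for 2, Ddit3 and Slc3a2 (background 19.6%). The first share is near the background and the second is below it. The lowest control levels of Gars and Hars, 40.6 and 29.9 CPM, came from 27 and 17 UMIs. They lay close to the 39.4 and 29.1 CPM of mCherry. The highest control level of Ddit3, 51.0 CPM in dendritic cell-like cells, came from 29 UMIs. The placement of Gars, Hars and Ddit3 outside the range is thus uncertain. Slc3a2 ranged from 192 to 439 CPM over the 5 mCherry clusters and from 88.4 to 185 CPM over the 13 control lineages, with no overlap. In non_mCherry T, NK and innate lymphoid-like cells it reached 214 CPM, inside the mCherry range. Asns ranged from 0.945 to 2.80 CPM over the mCherry clusters, and 11 of the 13 control lineages lay above the mCherry library's 1.97 CPM. Phgdh ranged from 47.4 to 142 CPM over the mCherry clusters and from 79.1 to 437 CPM over the control lineages.

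Cluster 14, led by the mitosis genes Cenpf and Aspm, had the highest sums of synthetases and of asparagine and serine genes within mCherry. Its synthetases summed to 1289 CPM, against 958 to 1072 CPM in the other 4 clusters, and its asparagine and serine genes to 353 CPM, against 138 to 198 CPM. Its S phase genes summed to 2402 CPM, against 727 to 837 CPM in the other clusters. In cluster 14 Asns stood at 2.80 CPM and Phgdh at 142 CPM. Mthfd2 had 27.3 CPM in this cluster, against 2.51 to 5.96 CPM in the other 4.

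Ddit3 was uneven within mCherry. It had 109.5 CPM in cluster 5, 92.5 CPM in cluster 2, 63.4 CPM in cluster 0, 45.7 CPM in cluster 14 and 42.4 CPM in cluster 6, against 16.3 to 51.0 CPM over the control lineages. The 16 immediate early genes summed to 24685, 29577, 22195, 10182 and 4505 CPM in those clusters in the same order. The clusters with the lower immediate early sums, 14 and 6, had Ddit3 levels inside the control range. Slc3a2 stood at 192 CPM in cluster 6, above every control lineage. Phgdh and Asns in cluster 6 had 80.2 and 0.945 CPM, and Atf4 had 88.5 CPM, below all 13 control lineages. The part of immediate early induction in the Ddit3 level was not tested.

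**Figure D4:**
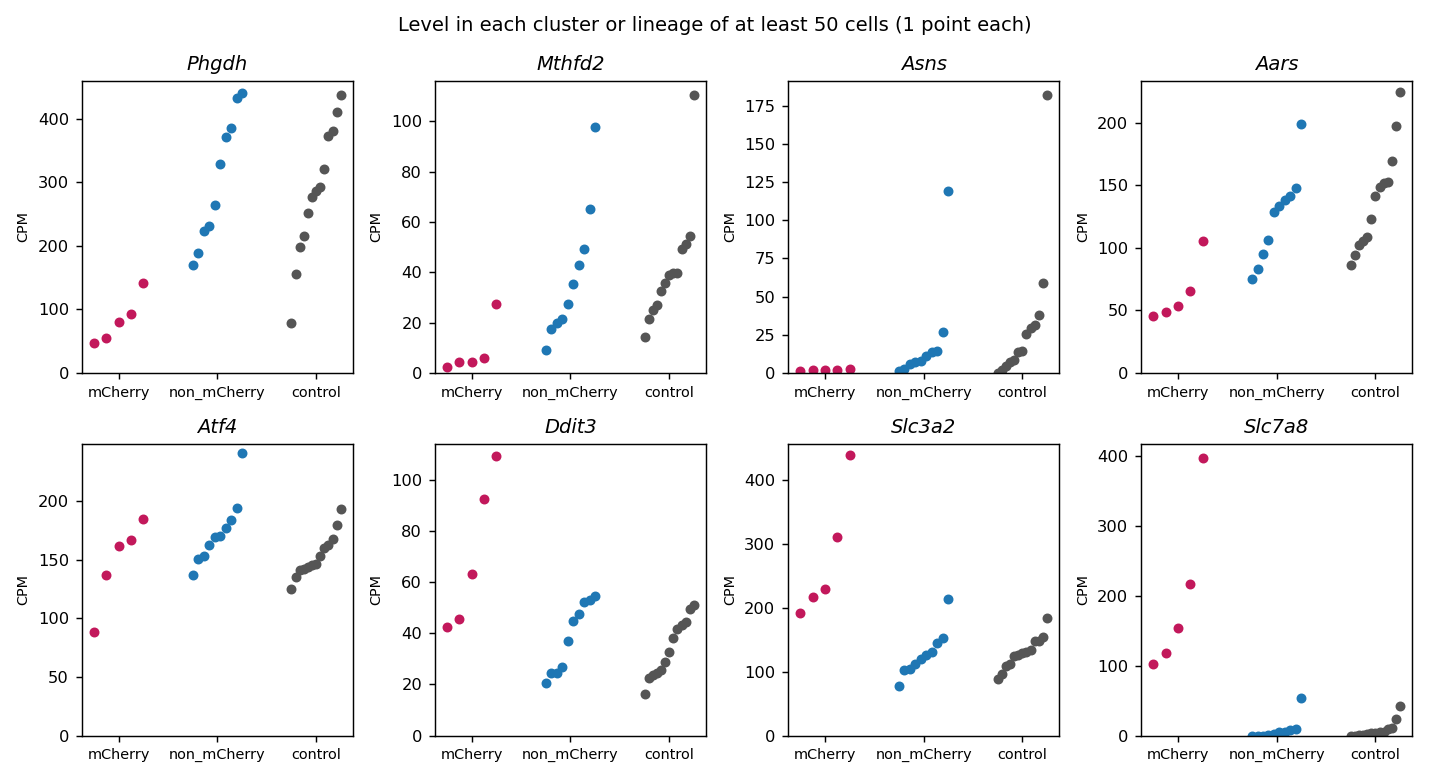
CPM of 8 genes in each cluster or lineage of at least 50 cells, 1 point each, by library; Slc7a8 is shown beside the 7 members. All mCherry points of Slc3a2 lie above the control points, the Ddit3 points overlap in part, and the Atf4 points of the 3 libraries overlap widely.

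Basophil and mast cell-like cells were the 1 named lineage with at least 100 cells in both mCherry and control, 1618 and 520 cells. They come from different clusters, cluster 5 (leading genes Cma1 and Mcpt4) for mCherry and cluster 9 (Prss34 and Mcpt8) for control. Within this name, 13 of 25 members were lower in mCherry by at least 0.32 (background 24.8%) and 2 were higher (background 38.8%). Phgdh had 47.4 CPM in mCherry and 215 CPM in control cells, a log2 ratio of -2.07. Mthfd2 had a ratio of -1.48 with 4.5 CPM in mCherry and 21.5 CPM in control. Slc3a2 stood at 439 CPM in mCherry and 154 CPM in control, and Ddit3 at 109.5 and 44.6 CPM. Against the 580 non_mCherry cells of this name, which also lie mostly in cluster 9, 11 of 24 members were lower (background 22.2%) and 2 were higher (background 42.6%). The S phase genes of these cells summed to 837 CPM in mCherry and 2034 CPM in control, and the immediate early genes to 24685 and 6838 CPM.

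In clusters 0, 2, 6 and 14 the stem and multipotent progenitor markers scored highest of the marker lists, at 0.972, 0.369, 0.917 and 0.586. These scores were under the cut of 1, so no mCherry cluster had that name. At Leiden resolution 2.0 a cluster with 215 mCherry cells had it. Control and non_mCherry cells were also clustered without mCherry. This gave a stem and multipotent progenitor-like cluster led by Nkx2-3 and Hlf with 693 control and 203 non_mCherry cells. All mCherry cells were set against these cells, a choice made after the data were seen. Against the stem-like control cells, 12 of 25 members were lower in mCherry by at least 0.32 (background 26.8%) and 2 were higher (background 28.1%), and the median was -0.32, against 0.01 for all genes. Of the synthetases 9 of 18 were lower. The median over the 4 asparagine and serine genes that entered was -0.79. Asns and Mthfd2 did not enter, since both were under 20 CPM in mCherry and in these cells.

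The ratios of single genes moved by unequal amounts in this comparison. Asns had 1.97 CPM in mCherry and 15.4 CPM in stem-like control cells, a ratio of -1.55 in place of -2.74. Mthfd2 had 7.46 CPM in mCherry and 19.8 CPM in stem-like control cells, a ratio of -0.99 in place of -2.18. Phgdh hardly moved, with 83.5 CPM in mCherry, 324 CPM in stem-like control cells and a ratio of -1.89. Psat1 had 40.6 CPM in mCherry and 44.9 CPM in stem-like control cells, a ratio of -0.13. Aars had 59.7 and 125 CPM in mCherry and stem-like control cells. Ddit3 and Slc3a2 kept ratios of 1.27 and 0.79.

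Against the 203 stem-like non_mCherry cells the counts were smaller, 6 of 25 members lower (background 23.1%) and 2 higher (background 28.8%), with a median of -0.16. Phgdh had 83.5 CPM in mCherry and 253 CPM there, a ratio of -1.55. Aars had 59.7 CPM in mCherry and 86.1 CPM there, and Slc3a2 had 266 and 133 CPM. The share of lower members was thus near the background in this comparison, while Phgdh, Slc3a2 and Ddit3 (0.89) kept their directions.

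Clustering without mCherry also set apart 102 non_mCherry cells led by Cma1, Cpa3 and Ccl2. Slc3a2 stood at 269 CPM there, Phgdh at 74.3 CPM and Slc7a8 at 145 CPM, all within the range of the 5 mCherry clusters. Ddit3 at 185 CPM lay above that range. Asns had 2 UMIs there, or 4.02 CPM, too few to place it against that range. In these 102 cells the immediate early genes summed to 18991 CPM and the S phase genes to 816 CPM.

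Cells without a UMI of 8 cycle genes, after thinning each cell to 2000 UMIs, made up 70.7% of mCherry, 36.1% of non_mCherry and 29.4% of control cells. Among these cells 19 members were lower and 2 higher in mCherry than in control, the same counts as over all cells, against 29.9% and 37.8% of all genes. The median was -0.45 for the synthetases and -1.43 for asparagine and serine. Asns had a ratio of -1.93 and Phgdh one of -2.10. With this restriction and the stem-like control cells together, 10 of 24 members were lower and 2 higher, against 27.4% and 27.1% of all genes, and Phgdh stood at 74.7 CPM in mCherry and 281 CPM in control, a ratio of -1.84.

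Shares of cells with at least 1 UMI were compared after thinning. Phgdh was seen in 13.1% of mCherry cells (exact 95% interval 12.5 to 13.8), 42.4% of non_mCherry cells and 46.1% of control cells. Without thinning these shares were 39.6%, 79.4% and 89.9%. The lowest thinned share of Phgdh in any control lineage was 12.2%, in dendritic cell-like cells. Slc3a2 was seen in 40.0% of mCherry, 20.4% of non_mCherry and 22.4% of control cells, and without thinning in 80.8%, 61.1% and 78.6%. Ddit3 was seen in 13.5%, 8.31% and 5.66%, and without thinning in 39.2%, 29.0% and 31.8%. Asns was seen in 0.294% of mCherry cells (0.197 to 0.422), 3.25% of non_mCherry and 5.17% of control cells. Without thinning these Asns shares were 1.35%, 13.6% and 26.1%. No cell type is known to lack these genes, so a share that free RNA alone would give was not measured.

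Within lineages the non_mCherry and control libraries were compared in the 9 that had at least 100 cells in both. The synthetase sum was lower in non_mCherry than in control in all 9, with quotients of 0.781 to 0.997, where the value nearest to 1, in granulocyte-monocyte progenitor-like cells, had an interval that includes 1 (0.974 to 1.02). Median synthetase ratios (all genes in brackets) were -0.37 (-0.08) in cluster 4 and -0.22 (-0.04) in lymphoid-primed progenitor-like cells. Erythroid progenitor-like cells had -0.16 (-0.04), basophil and mast cell-like -0.12 (-0.07), megakaryocyte-like -0.11 (-0.05) and monocyte and macrophage progenitor-like cells -0.09 (-0.04). Near all genes lay T, NK and innate lymphoid-like cells at -0.11 (-0.09), cluster 3 at -0.05 (-0.06) and granulocyte-monocyte progenitor-like cells at 0.00 (0.01). The regulator sum was higher in non_mCherry in 7 of the 9, with quotients of up to 1.28, and lower in 2. Among the higher ones, intervals included 1 in cluster 3 (0.944 to 1.06), T, NK and innate lymphoid-like cells (0.874 to 1.35) and lymphoid-primed progenitor-like cells (0.944 to 1.385). Among the lower ones, this held for monocyte and macrophage progenitor-like cells (0.953 to 1.03). Counts of members past 0.32 differed between these lineages. Erythroid progenitor-like cells had 1 lower (background 2.9%) and 0 higher (2.14%), cluster 3 had 1 lower (6.14%) and 0 higher (2.47%), and megakaryocyte-like cells had 2 lower (4.43%) and 0 higher (2.43%). Granulocyte-monocyte progenitor-like cells had 0 lower (background 2.02%) and 0 higher (3.54%), and monocyte and macrophage progenitor-like cells 0 lower (2.47%) and 0 higher (2.88%). Basophil and mast cell-like cells had 2 lower (background 8.7%) and 1 higher (3.1%). In the lineages with the fewest cells, T, NK and innate lymphoid-like cells had 6 lower (background 27.8%) and 4 higher (14.9%), and lymphoid-primed progenitor-like cells 5 lower (18.8%) and 2 higher (11.5%). Cluster 4 (leading genes Gm15915 and Apoe) had the highest count, 18 of 27 members lower in non_mCherry (background 13.5%) and 0 higher (background 5.83%). Its synthetases summed to 1337 CPM in non_mCherry and 1712 CPM in control, and its asparagine and serine genes to 391 and 569 CPM. Asns in cluster 4 had 14.3 CPM in non_mCherry and 31.5 CPM in control. The S phase genes of this cluster summed to 2040 CPM in non_mCherry and 2630 CPM in control, and its immediate early genes to 7239 and 5403 CPM. Their part in the difference was not tested.

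Some low members were highest in lineages that had under 50 mCherry cells. Trib3 stood at 7.0 CPM in non_mCherry B cell progenitor-like cells, where Atf4 had 241 CPM, above its other levels in the joint clustering of the 3 libraries. The 102 non_mCherry cells described above had 271 CPM of Atf4. Slc7a11 reached 22.6 CPM in control neutrophil-like cells and 14.3 CPM in control eosinophil progenitor-like cells.

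Neighbouring parts of the pathway, counted for mCherry over control against the same backgrounds of 38.6% higher and 32.1% lower, were mixed. The 4 other genes of the synthetase complex were all lower, the lowest being Eef1e1 with 36.5 CPM in mCherry, 69.5 CPM in non_mCherry and 91.2 CPM in control. Of 7 mitochondrial synthetases that entered, 2 were lower and 0 higher, Yars2 (-0.93) and Cars2 (-0.37), with a median of -0.17. Of 7 other folate and serine genes, 6 were lower and 1 higher. The higher gene was Mthfd2l, a relative of Mthfd2, with 40.7 CPM in mCherry, 19.9 CPM in non_mCherry and 20.2 CPM in control. The Mthfd2 relative was thus highest in the library where Mthfd2 was lowest.

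Upstream of ATF4, 2 of 7 eIF2alpha kinase, subunit and phosphatase genes were higher in mCherry than in control and 3 were lower. Ppp1r15a (GADD34), the phosphatase subunit that restores translation, had 593 CPM in mCherry, 113 CPM in non_mCherry and 77.2 CPM in control. Eif2s1, which encodes eIF2alpha itself, had 114 CPM in mCherry, 206.5 CPM in non_mCherry and 220.0 CPM in control. Of 11 other ATF4 targets, 5 were higher and 4 lower. Gdf15, a secreted stress signal, had 21.9 CPM in mCherry, 2.79 CPM in non_mCherry and 2.28 CPM in control, and Atf3 had 75.7, 43.1 and 19.0 CPM. These genes were uneven within mCherry. In cluster 6, which had the lowest immediate early sum of the mCherry clusters, Ppp1r15a stood at 157 CPM, Gdf15 at 4.02 CPM and Atf3 at 1.97 CPM. The part of the immediate early genes in their levels was not tested. Got1 (-0.94) and Eif4ebp1 (-0.78) had the lowest ratios of that list.

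Among 5 other transporters, 2 were higher and 2 lower. Slc7a8, given above, had a log2 ratio of 4.12 and stood at 398 CPM in the mCherry cells of cluster 5, against 42.8 CPM in basophil and mast cell-like control cells. Slc38a2, a glutamine and alanine carrier, had 107 CPM in mCherry, 60.2 CPM in non_mCherry and 55.2 CPM in control. Slc7a1, for arginine and lysine, had 17.4 CPM in mCherry, 29.7 CPM in non_mCherry and 36.9 CPM in control. Of 12 genes of the unfolded protein response, 7 were lower and 2 higher, from Sdf2l1 (-2.34) to Dnajb9 (0.78). Of the 20 S phase genes 19 were lower in mCherry, 19 of the 20 genes of G2 and M phase as well, and all 15 immediate early genes that entered were higher.

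**Figure D5:**
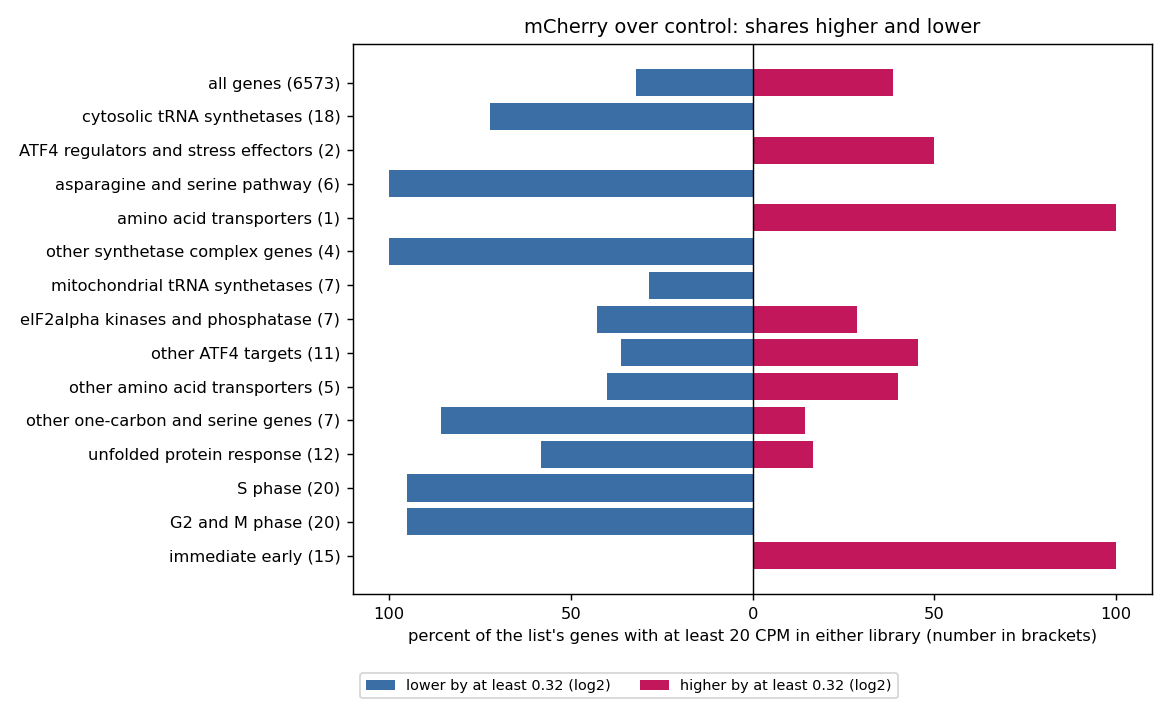
Percent of each list's genes with a log2 ratio of mCherry over control of at least 0.32 in either direction, among genes that reached 20 CPM in mCherry or control (their number in brackets); higher to the right, lower to the left. All 6 asparagine and serine genes lie to the left and all 15 immediate early genes to the right, and the bar of all genes shows 32.1% and 38.6%.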

How the data were processed

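The authors deposited 1 matrix of UMI counts per library, not normalized, with lists of barcodes and genes. Cell Ranger 6.1.2 and mm10 are named per the submitters' processing notes. Per the file headers the software version was 3.1.0, and the sources do not settle which version counted the reads. Members and gene lists were chosen with earlier results of these data known. Members were named in full, and other lists by at most their 2 highest and 2 lowest ratios of mCherry over control. Some items under these rules are not reported here.

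Kept barcodes had at least 1000 genes, at least 2000 UMIs and at most 10% mitochondrial UMIs. Doublets, scored by Scrublet's method with a score threshold of 0.25 set with the data in hand, took a further 5.38% of mCherry, 2.84% of non_mCherry and 3.25% of control cells. Doublets of like cells cannot be found this way. Counts were scaled to 10000 per cell, and 2000 variable genes without the members, 30 principal components, 15 neighbours and Leiden resolution 1.0 gave 25 clusters (leidenalg 0.10.2, igraph 0.11.9, scikit-learn 1.9.0, scipy 1.17.1, numpy 2.4.6, pandas 2.3.3, Python 3.11.15). A cluster was named where its mean marker score was at least 1 with at least 3 markers up, unless another class had more markers than it among the top 10 genes. This scoring rule was set with the data in hand, and names may differ from the study's.

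Counts were summed over cells to CPM. With 1 library per group no test was made. Levels carry exact Poisson, quotients exact conditional binomial and shares Clopper-Pearson intervals at 95%. UMIs of a gene at 20 CPM number over 1000 per library, so counting error is small there. The calculations were tested on simulated counts. Gene locations come from GENCODE vM21 (mm10), matched for 27645 of 27998 identifiers. Of the promoters, 8 members had no entry in the table used. Alternatives were another pseudocount, filter, scaling, cell set, weighting and lineage assignment.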

Additional observations from a re-analysis of the deposited data

How the results depend on the processing

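No paired analysis was possible because each group is 1 library and no test was made. Of 1156 single-gene values under an alternative setting 778 stayed within counting error, 374 moved by more than counting error and 4 turned sign from a ratio of at least 0.32 in size (ratios nearer 0 that crossed it are not among the 4), and of 148 counts 117 stayed within 1.5 times. Against stem-like non_mCherry cells the ratios of Iars and Slc7a5 for mCherry over non_mCherry turned to 0.20 and 0.05. In cells without a cycle UMI against stem-like control cells those of Wars and Psat1 for mCherry over control turned to 0.01 and 0.04. For mCherry over control the 5 members lower by a log2 ratio of 1 became 3 with 20 CPM required in both libraries, 9 with median-of-ratios scaling, 2 against stem-like cells and 1 against stem-like cells without a cycle UMI. Asns and Mthfd2 did not pass the CPM filter with 20 CPM in both or with stem-like cells. Their ratios against stem-like control cells were -1.55 and -0.99, and without a cycle UMI -1.51 and -0.76. The 1 higher by a log2 ratio of 1 became 0 with median-of-ratios scaling and 2 with equal cell weights or thinned cells. The 19 lower by 0.32 became 12 against stem-like cells and 10 without a cycle UMI there. For mCherry over non_mCherry the 5 lower by a log2 ratio of 1 became 3 with 20 CPM in both, equal weights or thinned cells, 2 without a cycle UMI and 1 against stem-like cells. Asns did not pass the CPM filter in any of these settings. Its ratios were -1.71 with equal weights, -1.83 with thinned cells, -1.55 without a cycle UMI and -0.95 against stem-like cells. The 1 higher became 0 with median-of-ratios scaling, without a cycle UMI, without B cell progenitor-like cells and against stem-like cells, where the 18 lower by 0.32 became 6. For non_mCherry over control the 0 higher by 0.32 became 1 with a pseudocount of 1, all barcodes or no cycle UMI, and 2 with equal weights or thinned cells. The 1 lower became 2 with no filter, equal weights or no cycle UMI, 4 with thinned cells and 0 without B cell progenitor-like cells. Median-of-ratios scaling moved the median of all genes for mCherry over control from 0.08 to -0.14 and the shares higher and lower from 38.6% and 32.1% to 29.6% and 41.3%; members were then 2 higher and 22 lower. With lineages from per-cell marker levels, non_mCherry had the lower asparagine and serine sum in 4 and the lower transporter sum in 3 of 7 lineages, against 7 of 9 for each with clusters. The cause of these changes was not tested. The leave-one-out check needs replicates and was not possible with 1 library per group. Depth limits Chac1, Trib3, Slc7a5, Slc7a11 and, in mCherry, Asns.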
